A study of Mus musculus with 9 samples.

Results

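Tight junction and claudin genes were followed in jejunal RNA of 9 mice, and the 9 members were *Cldn1*, *Cldn2*, *Cldn3*, *Cldn4*, *Cldn7*, *Cldn8*, *Cldn15*, *Ocln* and *Tjp1*. A probe belonged to a member when its gene symbol field, split where several symbols were joined, held the member's symbol. By this rule 9 probes, 1 for each member, were found among the 17302 probes with a symbol, which name 15674 genes. Each single-colour Applied Biosystems array, read by chemiluminescence, held RNA from the jejunum of 1 male OF1 mouse, an outbred stock, aged 7 weeks and of generation 3 of a feeding trial. The mice were fed B (mice 7, 8 and 10), K (mice 1, 3 and 4) or G (mice 4, 8 and 11), with 3 mice per feed, and equal numbers under different feeds are different mice. What the feed letters denote is not given in the sources used here, and each pair of feeds was therefore compared without naming a control. All mice shared stock, sex, age and a fast before sampling. No time of day is known for any of the samples, and collection was not spread over the feeds by chance.

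The tight junction closes the space between neighbouring epithelial cells near their apical side. Claudins are membrane proteins with 4 transmembrane segments that form its strands, and some of them build pores for ions and water whereas others seal the strand. Occludin is a further strand protein, and the scaffold protein ZO-1, encoded by *Tjp1*, ties the strands to the actin cytoskeleton. In the small intestine the pore-forming claudins 2 and 15 let sodium return to the lumen, where it drives the uptake of nutrients.

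The upstream sequences of 4 members are shown, and their relation to the signals was not tested. *Cldn2* and *Tjp1* were the pair of members with the largest correlation over the mice, which did not pass the threshold. *Cldn3* and *Cldn4* are neighbouring protein-coding genes on chromosome 5. Each is the 250 bases before the start of the gene, 5′ to 3′ on the strand of the gene, from RefSeq on GRCm38.p6. Capitals mark matches, on either strand, to any of 4 motifs: TATAAA (the TATA box), TTTATG (a core of sites for the intestinal Cdx factors), CACCTG (an E-box that Snail-type repressors bind) and GGGCGG (the GC box). No matches overlap in these sequences. The window of *Cldn2* is chrX:139800558-139800807 on the plus strand, that of *Tjp1* is chr7:65371245-65371494 on the minus strand, that of *Cldn3* is chr5:134985964-134986213 on the plus strand, and that of *Cldn4* is chr5:134946935-134947184 on the minus strand.
Cldn2: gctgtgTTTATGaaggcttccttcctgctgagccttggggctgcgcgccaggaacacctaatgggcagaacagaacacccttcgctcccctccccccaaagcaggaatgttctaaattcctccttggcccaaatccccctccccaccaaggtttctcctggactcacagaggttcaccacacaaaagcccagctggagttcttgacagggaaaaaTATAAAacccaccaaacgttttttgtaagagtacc
Tjp1: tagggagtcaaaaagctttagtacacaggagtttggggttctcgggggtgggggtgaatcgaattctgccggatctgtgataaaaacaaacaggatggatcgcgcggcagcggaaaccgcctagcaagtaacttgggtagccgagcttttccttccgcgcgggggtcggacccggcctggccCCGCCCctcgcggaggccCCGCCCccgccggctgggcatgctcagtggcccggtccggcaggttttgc
Cldn3: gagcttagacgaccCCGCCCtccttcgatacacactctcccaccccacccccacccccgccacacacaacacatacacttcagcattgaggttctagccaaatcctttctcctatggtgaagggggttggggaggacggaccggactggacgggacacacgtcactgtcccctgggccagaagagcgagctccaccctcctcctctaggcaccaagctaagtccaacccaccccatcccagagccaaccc
Cldn4: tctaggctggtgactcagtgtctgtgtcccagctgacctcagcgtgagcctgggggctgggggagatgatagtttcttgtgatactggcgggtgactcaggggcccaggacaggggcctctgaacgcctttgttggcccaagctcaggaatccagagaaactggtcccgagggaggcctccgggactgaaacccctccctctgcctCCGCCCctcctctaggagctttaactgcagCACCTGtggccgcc
The window of *Cldn2* held a TATAAA that begins 35 bases before the start and a TTTATG near its 5′ end. The windows of *Tjp1*, *Cldn3* and *Cldn4* held neither of these motifs in either orientation. *Tjp1* had 2 GC boxes, and *Cldn3* and *Cldn4* had 1 each, while the CACCTG in the window of *Cldn4* lay 14 bases before the start. Of all 32851 windows of this length, 12.4% held TATAAA, 10.8% TTTATG, 17.2% CACCTG and 32.7% GGGCGG, so that each motif is common. A match is a description of the letters only. Windows were found for 8 of the 9 members, all but *Cldn8*.

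Of the 9 members, 7 were detected on all 9 arrays, and *Cldn1* and *Cldn8* were detected on 0 arrays. Detection on an array means that the signal was at least 3 times the noise. Among the members read on every array the lowest ratio was 14.1, for *Cldn7*, and the highest was 140.47, for *Cldn3*. *Cldn1*, which encodes a sealing claudin, had ratios from -3.74 to 2.11 with a median of -0.53, and its spot failed the quality flag on the array of feed B mouse 7. *Cldn8*, which encodes a claudin known from tight epithelia such as the colon and the distal nephron, had ratios from -2.83 to 2.02 with a median of -0.22. Both were not above background, and their signal equalled the spot's standard deviation on 8 and 6 arrays, respectively, so that no fold is given for them. The probe of *Cldn1* bears the identifier 320113 and that of *Cldn8* the identifier 887718.

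**Figure D1:**
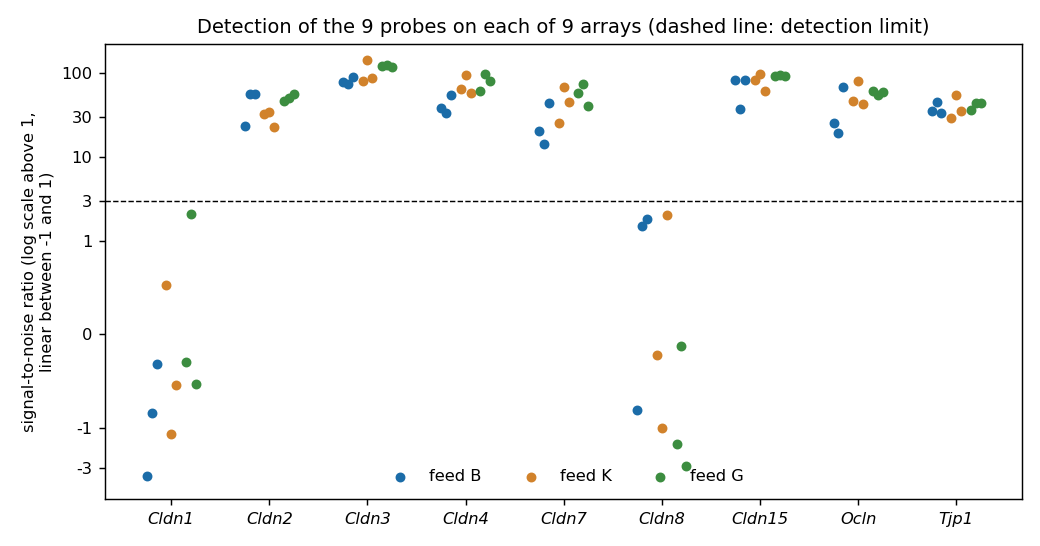
Signal-to-noise ratio of the probe of each of the 9 members on each of the 9 arrays, coloured by feed, on an axis that is logarithmic beyond 1 and linear between -1 and 1. The dashed line is the detection limit of 3, and all 9 points of *Cldn1* and of *Cldn8* lie under it, whereas the points of the other 7 members lie at 14.1 or above.

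The share of all probes detected ran from 33.7% to 48.1% over the arrays, lowest on feed B mouse 8 and highest on feed G mouse 8. No member's signal was related to this share past the threshold (exact permutation test, two-sided, n = 9, Benjamini-Hochberg over 7 members, lowest adjusted p = 0.603 for Pearson's r). The nearest was *Cldn3*, with r = 0.52 (p = 0.151), rho = 0.70 (p = 0.0433, adjusted p = 0.303) and r = 0.80 without the 2 mice farthest from the median share. A distal marker differed widely between mice: *Fabp6*, the ileal bile acid-binding protein, had log2 signals of 15.81, 4.67 and 17.84 in mice 7, 8 and 10 of feed B. It had 8.92, 12.19 and 11.81 in mice 1, 3 and 4 of feed K, and 8.10, 8.96 and 19.51 in mice 4, 8 and 11 of feed G. Feed G mouse 11 and feed B mouse 10 were highest, feed B mouse 8 was not above background, and the feeds overlapped. *Fabp6* was 1 of 7 markers of the distal small intestine and colon with a probe, and its values are not a reading of that list as a whole. *Guca2a*, the 1 detected on all arrays, had a 2.44-fold range. The part of the place of sampling along the intestine in the members' values was not tested. In whole tissue, fewer cells of a type and less RNA per cell cannot be told apart.

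The first comparison asked whether the members differed between the feeds. None of the 7 detected members passed (limma moderated F test over the 3 feeds, adjusted p from 0.903 to 0.972), and the percentage of all 9652 genes tested that passed was 0%. The unadjusted p was below 0.05 for 0 members, compared with 518 genes or 5.37% of those tested, and the exact permutation F test over all 280 splits of the mice called 0 of the 9556 genes with a value on each array. It gave 486 genes an unadjusted p below 0.05, and none of them was a member. Differences between pairs of feeds likewise gave 0 calls among 21, with adjusted p from 0.795 to 0.995. The unadjusted limma p of a pair was below 0.05 for 0 of the 21, compared with 6.31% of all genes tested between feeds K and B, 5.74% between feeds G and B and 4.54% between feeds G and K. The mice of 2 feeds did not overlap in 2 of the 21, a count that takes either direction. Over all genes such a gap was found in 6.26% with feed K above feed B and in a further 3.68% with K below B. The shares were 6.31% with G above K and a further 7.36% with G below K, and 6.30% with G above B and a further 4.65% with G below B. The shares of both directions of a pair add up, so the members had no excess of gaps. Of these 21 differences, 16 had a 95% confidence interval within 1 log2 unit, or 2-fold, of 0, among them every difference of *Cldn7*, *Cldn15*, *Ocln* and *Tjp1*. The standard error of a difference was between 0.18 and 0.37 log2 units. The median difference over the members was 0.15 from feed B to feed K, beside 0.054 over all genes tested. From feed B to feed G it was 0.12, beside 0.061, and from feed K to feed G it was -0.082, beside -0.0072. These pairs of feeds share mice.

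*Cldn2*, whose claudin forms pores for sodium and water and is known from the crypts, showed the largest difference between feeds among the members. Its log2 signal (probe 478800) was 12.28, 11.97 and 12.86 in mice 7, 8 and 10 of feed B. It was 11.98, 11.42 and 11.88 in mice 1, 3 and 4 of feed K, and 11.83, 11.95 and 11.34 in mice 4, 8 and 11 of feed G. All 3 feed B mice lay above all 3 feed G mice, though mouse 8 of feed B exceeded the highest feed G mouse by little, and feed K overlapped feed B. The means were 12.37 ± 0.45 in feed B, 11.76 ± 0.30 in feed K and 11.71 ± 0.32 in feed G (SD, n = 3 each). Feed G minus feed B was -0.67 log2 units (SE 0.29, 95% confidence interval -1.34 to 0.0067, limma adjusted p = 0.858), which is a 0.63-fold signal. Feed K minus feed B was -0.61 (SE 0.29, limma adjusted p = 0.795), and feed G minus feed K was -0.056, smaller than the SD within either feed. The exact permutation p of 3 mice against 3 was 0.1 for feeds G and B, the smallest this design allows. That gap, with feed G below feed B, was the one found in 4.65% of all genes. Without feed B mouse 10, feed G minus feed B became -0.42 and feed K minus feed B -0.37. Without the quantile normalization, feed G minus feed B was -0.32 in the series table and -0.11 after median scaling, where the median of all genes was 0.30 and 0.53, respectively, and it was thus -0.62 and -0.64 relative to that median.

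Markers of crypts and of Paneth cells stood beside *Cldn2* as follows. All 4 Paneth cell markers read by a probe had lower means in feeds K and G than in feed B, with a median difference of -0.71 for feed K and -1.13 for feed G, and 0 of them passed the limma test. The feed G part rested partly on mouse 11. Without that mouse, an alternative chosen after seeing the data, the median was -0.24. *Ang4* and *Itln1* stayed lower, with feed G minus feed B at -1.35 and -0.57, while 2 of the 4 markers had a higher mean in feed G than in feed B. These were *Mmp7* and the marker listed as *Lyz1*. The probe of the latter is named *Lyzs* in the files, and whether it reads *Lyz1* or another lysozyme gene was not tested. *Ang4*, an antimicrobial angiogenin of Paneth cells, had log2 signals of 14.93, 14.31 and 15.79 in mice 7, 8 and 10 of feed B and 13.92, 13.37 and 13.43 in mice 1, 3 and 4 of feed K. In mice 4, 8 and 11 of feed G it had 12.73, 14.59 and 10.03. The mouse with the highest *Ang4* and the mouse with the lowest were also those with the highest and lowest *Cldn2*. *Lyz1*, *Mmp7* and *Itln1* were lowest in that same mouse, feed G mouse 11, but none was highest in the mouse highest in *Cldn2*. Their highest values were in feed G mouse 8 (*Lyz1*, 18.31), feed K mouse 1 (*Mmp7*, 14.76) and feed B mouse 7 (*Itln1*, 16.01). The summed signal of the Paneth list ranged from 293684 to 413756 in feed B, 200709 to 320896 in feed K and 63975 to 429589 in feed G. Most of each sum came from the probe listed as *Lyz1*. Of the 7 crypt and cycling markers with a probe, 4 had a higher mean in feed K than in feed B and 5 a higher mean in feed G. The summed signals were 13751 to 17777 in feed B, 14121 to 16026 in feed K and 16306 to 18991 in feed G, and *Pcna* made up most of each. *Lgr5*, the gene of the crypt base stem cell receptor, had log2 signals of 10.48, 10.19 and 10.23 in mice 7, 8 and 10 of feed B and 10.12, 9.49 and 9.79 in mice 1, 3 and 4 of feed K, without overlap (feed K minus feed B -0.50, SE 0.22, limma adjusted p = 0.787). In mice 4, 8 and 11 of feed G it had 10.07, 9.93 and 10.31, which overlapped feed B. The part of these cells in the *Cldn2* values was not tested.

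*Cldn15* encodes the other pore-forming member, a sodium pore of the villus and crypt epithelium. Its log2 signal (probe 737225) was 13.12, 13.56 and 13.31 in mice 7, 8 and 10 of feed B, and 13.55, 13.73 and 13.32 in mice 1, 3 and 4 of feed K. In mice 4, 8 and 11 of feed G it was 13.61, 13.75 and 12.80. The feeds overlapped throughout, and feed G held both the highest and the lowest mouse. The means were 13.53 ± 0.21 in feed K, 13.38 ± 0.52 in feed G and 13.33 ± 0.22 in feed B (SD, n = 3 each), and no neighbours in this order differed beyond the spread. Feed G minus feed B was 0.054 (SE 0.28, limma adjusted p = 0.981), and it ran from -0.13 without feed G mouse 8 to 0.35 without feed G mouse 11.

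The sealing and barrier claudins of the list are those of *Cldn3*, *Cldn4* and *Cldn7*. *Cldn3* (probe 929248) had log2 signals of 14.14, 13.90 and 14.32 in mice 7, 8 and 10 of feed B. It had 13.59, 14.48 and 13.66 in mice 1, 3 and 4 of feed K, and 14.01, 14.33 and 14.50 in mice 4, 8 and 11 of feed G. Mice 1 and 4 of feed K were lowest, but mouse 3 of that feed was second only to feed G mouse 11, and every pair of feeds overlapped. The means ran from 14.28 ± 0.25 in feed G over 14.12 ± 0.21 in feed B to 13.91 ± 0.50 in feed K (SD, n = 3 each), and neighbours differed by less than their spread. Feed G minus feed K was 0.37 (SE 0.28, 95% confidence interval -0.28 to 1.01, limma adjusted p = 0.960), and on leaving out a mouse it ran from 0.21 without feed K mouse 1 to 0.65 without feed K mouse 3, with 0.24 without feed K mouse 4.

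*Cldn4*, whose claudin is known from the dome epithelium of lymphoid follicles as well as from villus tips, varied among mice of every feed. Its log2 signal (probe 341371) was 13.30, 13.87 and 12.70 in mice 7, 8 and 10 of feed B. It was 13.89, 13.61 and 13.10 in mice 1, 3 and 4 of feed K, and 13.26, 13.09 and 13.97 in mice 4, 8 and 11 of feed G. A high and a low mouse occurred in each feed. The means were 13.53 ± 0.40 in feed K, 13.44 ± 0.47 in feed G and 13.29 ± 0.58 in feed B (SD, n = 3 each). The largest difference, feed K minus feed B, was 0.24 (SE 0.37, limma adjusted p = 0.953) and turned to -0.053 without feed B mouse 10. The summed signal of follicle-associated epithelium markers was 3846 to 4951 in feed B, 2144 to 3787 in feed K and 4112 to 12980 in feed G. Of the 6 markers with a probe, 1 was detected on all arrays and 2 on none. The 1 detected on all arrays, *Marcksl1* (named *Mlp* in the files), made up most of each sum. Its log2 signal was 11.44, 11.65 and 11.68 in mice 7, 8 and 10 of feed B, and 10.65, 10.45 and 11.19 in mice 1, 3 and 4 of feed K. In mice 4, 8 and 11 of feed G it was 11.74, 11.39 and 13.51. The sums are therefore not a reading of the list as a whole. The part of these markers in the values of *Cldn4* was not tested.

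*Cldn7*, whose claudin lies along the lateral membrane of intestinal cells and matters for epithelial integrity, was among the most even members. Its log2 signal (probe 925936) was 15.75, 15.97 and 16.09 in mice 7, 8 and 10 of feed B. It was 16.27, 16.25 and 16.06 in mice 1, 3 and 4 of feed K, and 15.88, 16.06 and 16.23 in mice 4, 8 and 11 of feed G. The 9 values lay within a 1.43-fold range, and the feeds overlapped. The means were 16.19 ± 0.12 in feed K, 16.06 ± 0.18 in feed G and 15.94 ± 0.17 in feed B (SD, n = 3 each). Feed K minus feed B was 0.26 (SE 0.18, 95% confidence interval -0.17 to 0.68, limma adjusted p = 0.852), and 0.16 without feed B mouse 7.

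*Ocln*, which encodes occludin, differed least between feeds. Its log2 signal (probe 803791) was 12.70, 12.72 and 12.93 in mice 7, 8 and 10 of feed B. It was 12.97, 12.79 and 12.47 in mice 1, 3 and 4 of feed K, and 12.43, 12.84 and 12.71 in mice 4, 8 and 11 of feed G. All feeds overlapped, and the means were 12.78 ± 0.13 in feed B, 12.74 ± 0.25 in feed K and 12.66 ± 0.21 in feed G (SD, n = 3 each). The largest difference, feed G minus feed B, was -0.12 (SE 0.21, 95% confidence interval -0.60 to 0.35, limma adjusted p = 0.942). It was -0.0049 without feed G mouse 4, -0.048 without feed B mouse 10 and -0.21 without feed G mouse 8. Its sign was positive under median scaling (0.42) and in the series table (0.21), where the median of all genes was 0.53 and 0.30, respectively.

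*Tjp1*, the gene of the ZO-1 scaffold, had its feed means in the order opposite to *Cldn2*. Its log2 signal (probe 873820) was 11.53, 11.68 and 11.16 in mice 7, 8 and 10 of feed B. It was 11.61, 11.68 and 11.52 in mice 1, 3 and 4 of feed K, and 11.80, 11.68 and 11.92 in mice 4, 8 and 11 of feed G. All 3 feed G mice lay above all 3 feed B mice, but the lowest of feed G and the highest of feed B were both at 11.68. A gap in this direction was found in 6.30% of all genes. The means were 11.80 ± 0.12 in feed G, 11.60 ± 0.083 in feed K and 11.45 ± 0.27 in feed B (SD, n = 3 each). Feed G minus feed B was 0.35 (SE 0.19, 95% confidence interval -0.094 to 0.79, limma adjusted p = 0.879), a 1.27-fold signal. The exact permutation F test over the 280 splits gave *Tjp1* an unadjusted p = 0.0857, the lowest of the members, followed by 0.118 for *Cldn2*. The limma F test gave *Tjp1* an unadjusted p = 0.251. Without feed B mouse 10, feed G minus feed B was 0.20.

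**Figure D2:**
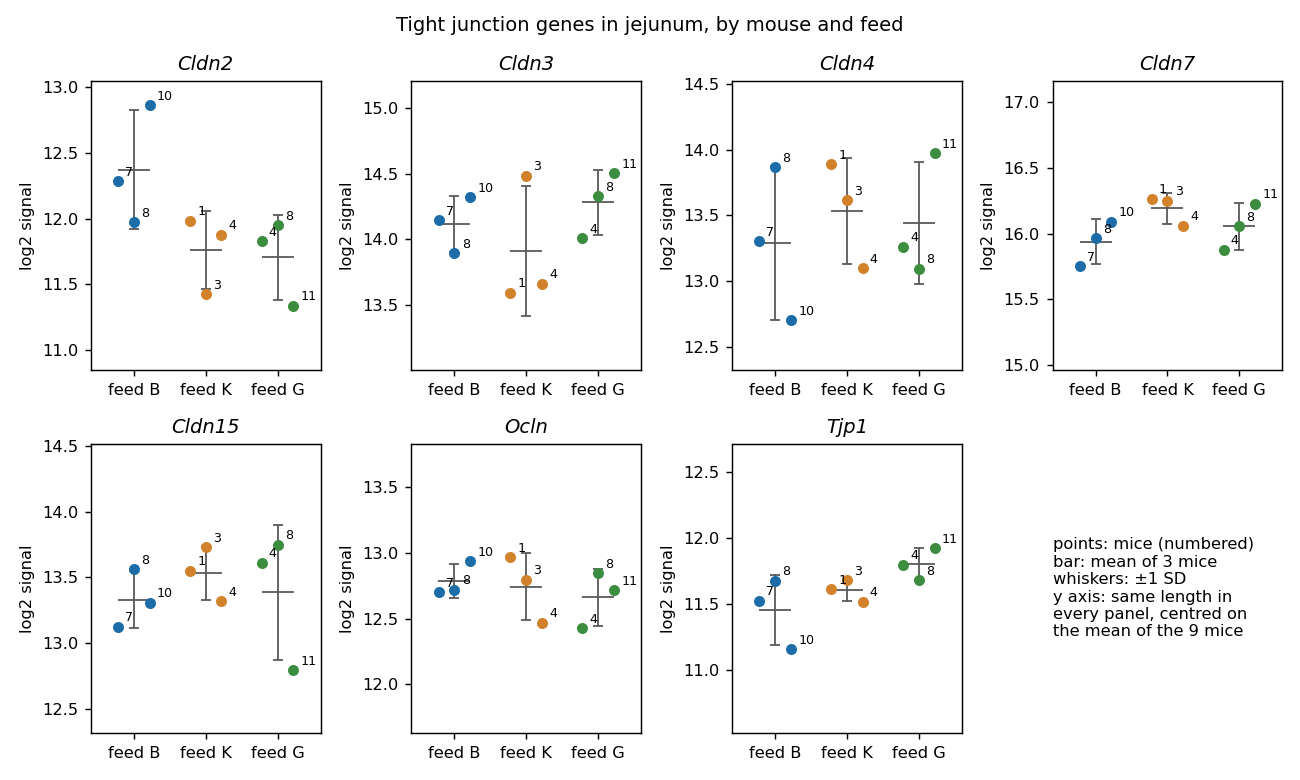
Log2 signal after quantile normalization of the 7 detected members in each mouse (points, with the mouse number), by feed, with the mean of the 3 mice and whiskers of 1 SD; the y axes have equal length. Feed B lies above feed G without overlap for *Cldn2* and below it for *Tjp1*, and all other pairs of feeds overlap.

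**Figure D3:**
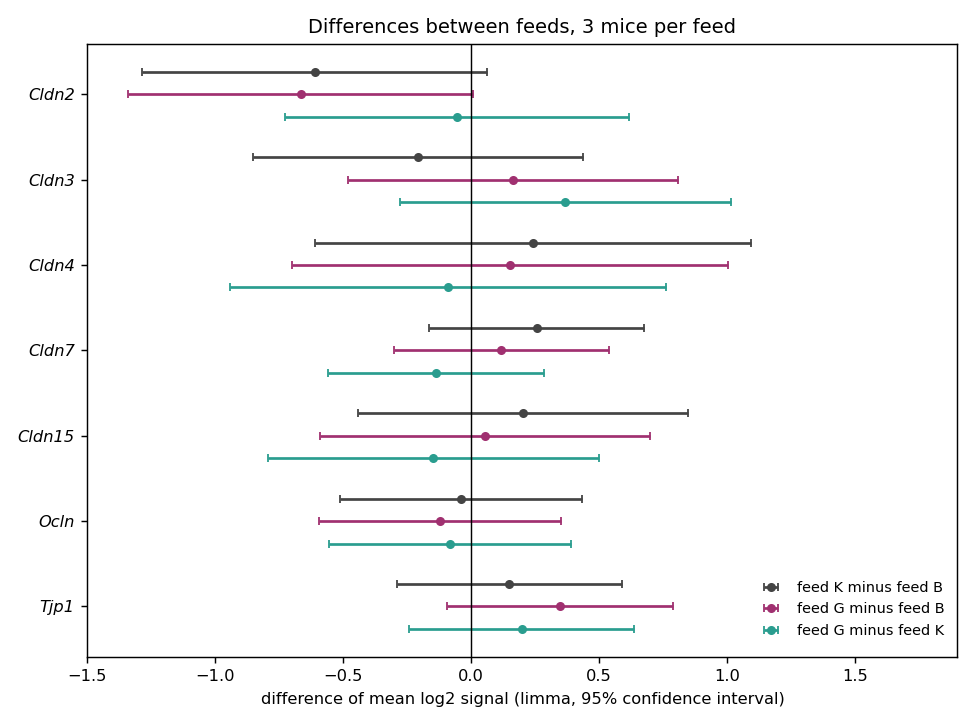
Difference of mean log2 signal between each pair of feeds for the 7 detected members, with the limma 95% confidence interval. All 21 intervals include 0, and the interval of *Cldn2* for feed G minus feed B, -1.34 to 0.0067, comes nearest to leaving it out.

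Uniformity over animals was the subject of the study, and the second comparison therefore set the spread of each member against that of other genes. The SD of log2 signal over the 9 mice was 0.17 for *Cldn7*, 0.19 for *Ocln* and 0.21 for *Tjp1*. Among the 5887 genes detected on all arrays, 14.0%, 17.2% and 26.4% had a smaller SD, respectively. *Cldn15* had an SD of 0.31 and *Cldn3* of 0.34, near the median of 0.29 over these genes. The most variable members were *Cldn4* with 0.44 and *Cldn2* with 0.45, and 76.8% and 78.7% of the genes had a smaller SD. The median over the 7 members was 0.31. The highest mouse exceeded the lowest by 1.43-fold for *Cldn7*, 1.46-fold for *Ocln*, 1.70-fold for *Tjp1*, 1.88-fold for *Cldn3* and 1.94-fold for *Cldn15*. It exceeded the lowest by 2.41-fold for *Cldn4* and 2.88-fold for *Cldn2*. Thus 5 of the 7 members stayed within 2-fold, compared with 57.9% of the genes. The values are descriptions without a test. Within feeds, the pooled SD of *Cldn2* was 0.36 and that of *Cldn4* was 0.49, so that *Cldn4* varied most among mice of the same feed. Under median scaling the SD of *Cldn7*, *Ocln* and *Tjp1* was 0.44, 0.44 and 0.46, so that their evenness holds relative to the quantile normalized array.

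**Figure D4:**
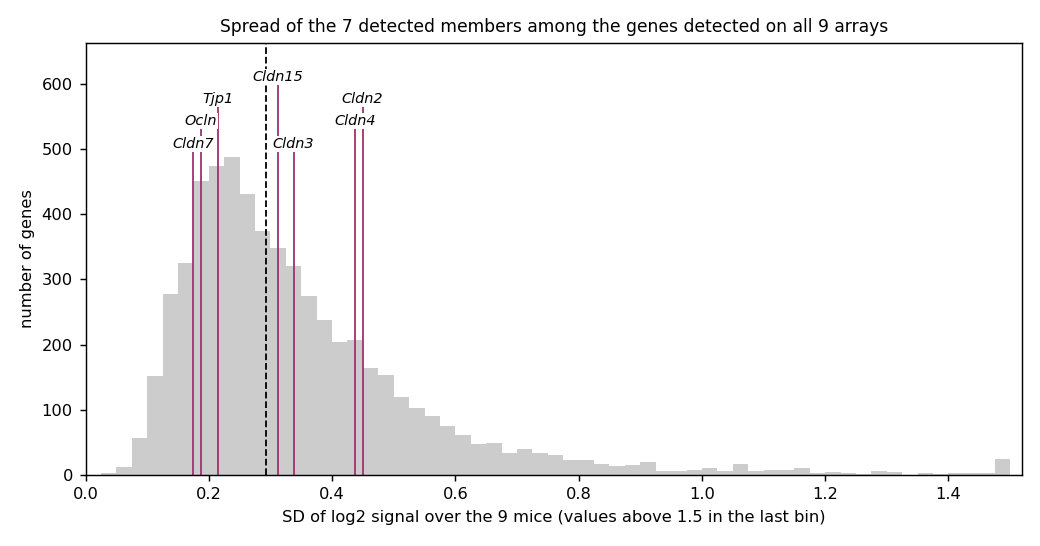
Histogram of the SD, over the 9 mice, of the log2 signal of each of the 5887 genes detected on all arrays, with the 7 detected members as lines and the median of 0.29 dashed. *Cldn7*, *Ocln* and *Tjp1* lie below the median, and *Cldn15*, *Cldn3*, *Cldn4* and *Cldn2* above it.

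The third comparison asked whether members rose and fell together from mouse to mouse. Of the 21 pairs of members, 0 passed (exact permutation test of Pearson's r over all pairings of the 9 mice, two-sided, Benjamini-Hochberg over 21 pairs, lowest adjusted p = 0.0634), and 3 had an unadjusted p below 0.05. For Spearman's rho, 0 passed and 1 had an unadjusted p below 0.05 by the same exact permutation. The median r was 0.043, with 12 pairs above 0 and 9 below. The genomic neighbours *Cldn3* and *Cldn4* had r = -0.10 (exact permutation p = 0.794, adjusted p = 0.934), and the pore-forming *Cldn2* and *Cldn15* had r = 0.0080 (exact permutation p = 0.983, adjusted p = 0.983).

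The pair nearest to the threshold was *Cldn2* and *Tjp1*, with r = -0.89 (exact permutation p = 0.00302, adjusted p = 0.0634) and rho = -0.82 (exact permutation p = 0.0108, adjusted p = 0.226). Feed B mouse 10 had the highest *Cldn2* and the lowest *Tjp1*, and feed G mouse 11 the lowest *Cldn2* and the highest *Tjp1*. Without the 2 mice farthest from the median of *Cldn2*, feed B mouse 10 and feed G mouse 11, r was -0.46, over a narrower range of *Cldn2*. Leaving out single mice gave r from -0.94 to -0.71. With feed means subtracted r was -0.91, and the exact permutation within feeds gave p = 0.00926 (adjusted p = 0.146). The relation also depended on the scaling of the arrays, since r was -0.30 in the series table and -0.027 after median scaling. *Cldn4* and *Tjp1* had r = 0.71 (exact permutation p = 0.0246, adjusted p = 0.258) and rho = 0.52 (exact permutation p = 0.162, adjusted p = 0.875). Here r was 0.13 without the 2 mice farthest in *Cldn4* and was 0.45 without feed B mouse 10. With feed means subtracted it was 0.89 (exact permutation within feeds p = 0.0139, adjusted p = 0.146), and it was 0.83 after median scaling and 0.82 in the series table. *Cldn2* and *Cldn4* had r = -0.68 (exact permutation p = 0.0382, adjusted p = 0.268) and rho = -0.38 (exact permutation p = 0.313, adjusted p = 0.938), with r = -0.12 without the 2 farthest mice and -0.41 without feed B mouse 10. With feed means subtracted it was -0.77 (exact permutation within feeds p = 0.0694, adjusted p = 0.365), and it was -0.30 after median scaling and -0.39 in the series table. After median scaling and in the series table, the median of all genes for feed G minus feed B was 0.53 and 0.30. A shift shared by the genes of an array can move r of every pair upward, so r under these scalings is no separate support for any pair.

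**Figure D5:**
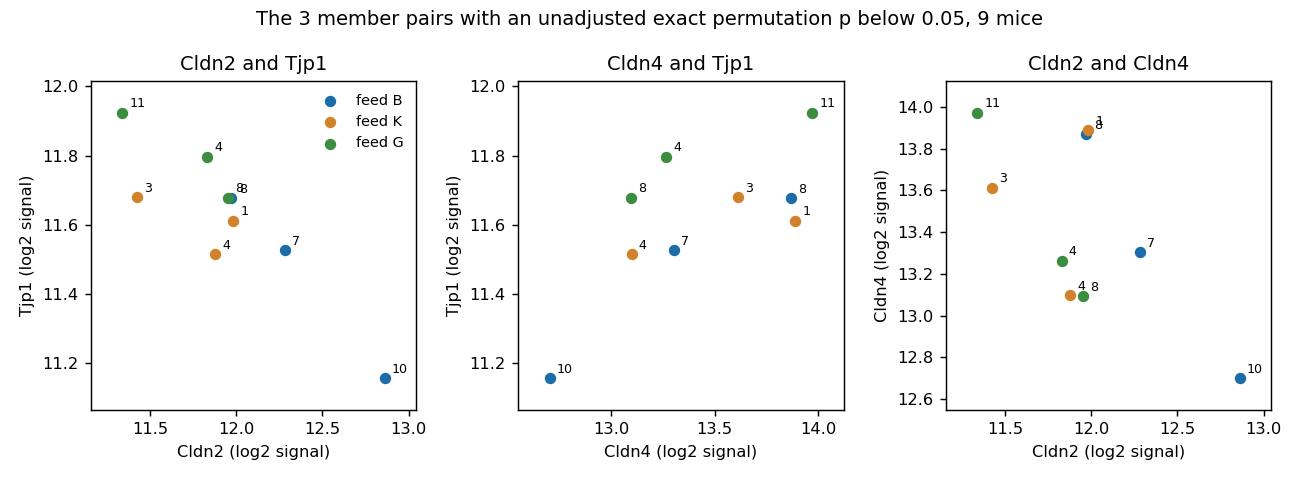
Log2 signals of *Cldn2*, *Cldn4* and *Tjp1* plotted against each other, with 1 point per mouse, coloured by feed and numbered. Feed B mouse 10 is the extreme point of each panel, with the highest *Cldn2* (12.86) and the lowest *Cldn4* (12.70) and *Tjp1* (11.16).

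The genes whose log2 signal followed a member most closely over the 9 mice were taken from the other 5886 genes detected on all arrays, by Pearson's r, as a description in which all points share the arrays. Nearest to *Cldn2* were *G1p2* (r = 0.92), *Ssr2* (0.92) and *Ddost* (0.90), the latter 2 being genes of protein entry into and glycosylation in the endoplasmic reticulum. *Cldn3* was most like *Olfr477* (r = 0.95), *AV028368* (0.95) and *Ftl2* (0.94), and *Cldn4* most like *Golga3* (0.96), *1810009N02Rik* (0.91) and *E330005K07Rik* (0.90). *Cldn7* went with *Mcfd2* (r = 0.95), *Stam2* (0.95) and *Rod1* (0.94). *Cldn15* went with *Smpd2* (r = 0.96), a probe shared by *A830037N07Rik* and *Ppargc1a* (0.95) and *1110055L24Rik* (0.95). *Ocln* was most like *Csnk2b*, a casein kinase subunit (r = 0.97), a probe shared by *Zfa* and *Zfx* (0.96) and *Txndc4* (0.89). *Tjp1* was most like *Pex13*, a peroxisomal import gene (r = 0.93), *Cyp2c37* (0.93) and *B230315F11Rik* (0.88). Each r is among the highest of 5886 over 9 mice, and values this high are to be found for most genes in such a search. No member was among the 3 genes most like another member, which with 3 places among 5886 genes says little on whether members moved together.

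The other genes of the junctions gave the setting of the members, and 0 passed the limma F test in any of the 5 lists. Of the 19 other claudins, 14 had a probe, 6 were tested, 1 had an unadjusted p below 0.05 and *Cldn23* was the 1 detected on all arrays, with an SD of 0.32. *Cldn16*, a claudin of renal magnesium transport next to *Cldn1* on chromosome 16, had the smallest p of this list (limma adjusted p = 0.729) and was detected on 3 arrays. Its log2 signal was 7.81, 7.46 and 7.89 in mice 7, 8 and 10 of feed B. In mice 1, 3 and 4 of feed K it was 6.09, 6.30 and 6.75. In mice 4, 8 and 11 of feed G it was 7.53, 7.01 and 6.33. A gene detected on 3 arrays can enter the test through 1 feed in which it is high. No conclusion is drawn from the p of such a gene. The others named by the rule were *Cldn5*, an endothelial claudin detected on 7 arrays (limma adjusted p = 0.903), and *Cldn26*, named *4930511J11Rik* in the files and detected on 3 arrays (limma adjusted p = 0.903). Of the 13 other tight junction membrane proteins, 11 had a probe and 10 were tested, with the smallest p for *Jam3*, *Jam2* and *Crb3*, each at a limma adjusted p of 0.903. *Jam3* and *Jam2* were detected on 3 arrays each, and *Crb3* on all 9. *Lsr*, the gene of the angulin that recruits tricellulin to tricellular contacts, was the most even of them, with an SD of 0.11 and a 1.27-fold range.

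Of the 30 plaque and polarity proteins, 22 had a probe, 20 were tested and 1 had an unadjusted p below 0.05. This was *St14*, the membrane protease matriptase that acts on tight junction assembly (limma adjusted p = 0.897), detected on 6 arrays. *Pard6b*, a polarity adaptor, had log2 signals of 11.86, 12.12 and 12.06 in mice 7, 8 and 10 of feed B and 12.11, 12.20 and 12.30 in mice 1, 3 and 4 of feed K. In mice 4, 8 and 11 of feed G it had 11.65, 11.69 and 11.82, entirely below both other feeds (limma adjusted p = 0.897). Over all genes, 1.39% had feed G below both other feeds. That share was taken for this pattern only, and *Pard6b* was named for its small p, so the share does not measure how rare such a gap is. *Pals1*, named *Mpp5* in the files, followed (adjusted p = 0.903).

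Of the 12 adherens junction genes, 11 had a probe and were tested, and 0 had an unadjusted p below 0.05. *Nectin2*, named *Pvrl2* in the files, came nearest (limma adjusted p = 0.897), with 11.16, 11.02 and 10.60 in mice 4, 8 and 11 of feed G and 11.21 to 11.67 in the other mice. It thus had the same pattern as *Pard6b*, with feed G below both other feeds, and was likewise named for its small p. *Plekha7*, under the older symbol *A430081P20Rik*, and *Ctnna1* followed, each with an adjusted p of 0.903. Of the 9 desmosome genes, 8 were tested, with *Jup*, *Dsg2* and *Pkp3* at an adjusted p of 0.903. The median SD of the genes detected on all arrays was 0.20 for the adherens junction, 0.28 for the plaque and 0.38 for the desmosome, beside 0.31 for the members.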

How the data were processed

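Jejunal RNA of 9 mice was read on 9 arrays. The authors deposited each scanner table, holding the background-corrected, spatially normalized signal intensity, its standard deviation, a signal-to-noise ratio score and a flag. They also deposited a linear signal table of the series, and all 297108 of its values equalled the assay-normalized signal. The labels name RMA. Genome build and annotation were not given in the sources used here.

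A flag above 5000 removed a spot, and signals were quantile normalized with the arithmetic mean, log2 transformed and averaged per gene. Genes detected on at least 3 arrays entered limma 3.58.1 in R 4.3.3 (lmFit, eBayes, Benjamini-Hochberg at 0.05). The fits were tested on simulated data in which 200 of 9556 genes were changed in feed G. For feed G minus feed B, limma at an adjusted p below 0.05 recovered 0 of the 200 at a change of 1 log2 unit. It recovered 130 at 2 log2 units and 172 at 3, with 0, 8 and 12 unchanged genes called, respectively. A 2-fold difference between feeds would thus mostly have been missed. The number of arrays limits the precision. Python 3.11.15, numpy 2.4.6, pandas 2.3.3, scipy 1.17.1 and matplotlib 3.10.9 were used for all else.

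The members and lists were chosen with earlier results of these data known. Named are the members, the 3 genes of each other junction list with the smallest F test p, and the 3 genes most like each member. *Lsr* and *Cldn23* were named after their values were seen. Marker genes such as *Fabp6*, *Guca2a*, *Ang4*, *Lgr5* and *Marcksl1* fall outside these choices and were taken from the marker lists. Gene symbols are those of the files, or were matched through RefSeq accessions to GRCm38.p6 names. Alternatives were other scalings, an offset of 50, the brightest probe, other spot and gene filters, other tests and leaving out each mouse. Leaving feed G mouse 11 out of the marker lists was added after seeing the data.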

Additional observations from a re-analysis of the deposited data

How the results depend on the processing

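No paired analysis was possible because no mouse was sampled under more than 1 feed, and equal numbers under different feeds are different mice. The block on slide or scan date was not run because no batch holds more than 1 array. Over 616 combinations of a member's test with an alternative, 0 passed, and the lowest adjusted p was 0.266, for *Tjp1* (feed G minus feed B, limma) under median scaling. The count of genes past the F test, 0 as reported, became 3 with spots below a signal-to-noise ratio of 1 left out, and 1 each with only genes detected on all 9 arrays and with the unmoderated test. Leaving out each mouse gave 0 to 3, with 3 without feed B mouse 10. For feed G minus feed B the same 3 settings gave 4, 1 and 1, and leaving out a mouse 0 to 3. For feed G minus feed K the first and the last gave 3 and 1, and leaving out a mouse gave 0. For feed K minus feed B leaving out a mouse gave 0 to 10, with 10 without feed B mouse 10. No gene so called was a member. The cause was not tested.

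Unadjusted p-values below 0.05 in the F test numbered 518 as reported and 1077 under median scaling. Pairs of members past the threshold were 0 as reported, 4 under median scaling, 1 with failed spots kept and 0 to 1 on leaving out a mouse, the call being *Cldn2* and *Tjp1* without mouse 3 or mouse 4 of feed K. Over all mice left out, r of this pair ran from -0.94 to -0.71, the weakest without feed B mouse 10. Under median scaling, shifts shared by the genes of an array can raise r, so the 4 pairs are no separate support.

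Signs turned only for differences that passed no test. Under median scaling, feed G minus feed K was 0.050 for *Cldn2*, 0.068 for *Cldn4*, 0.087 for *Cldn7* and 0.033 for *Ocln*, feed K minus feed B was 0.22 for *Cldn3* and 0.38 for *Ocln*, and feed G minus feed B was 0.42 for *Ocln*. In the series table, feed G minus feed K was 0.093 for *Cldn2*, 0.0079 for *Cldn15* and 0.076 for *Ocln*, feed K minus feed B was 0.093 for *Cldn3* and 0.13 for *Ocln*, and feed G minus feed B was 0.21 for *Ocln*. The median of all genes was 0.41, 0.53 and 0.11 under median scaling and 0.21, 0.30 and 0.071 in the series table for feeds K minus B, G minus B and G minus K, and changes are read relative to it.

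On leaving out each mouse, feed G minus feed K ran from -0.22 to 0.13 for *Cldn2*, from -0.35 to 0.087 for *Cldn4*, from -0.33 to 0.15 for *Cldn15* and from -0.22 to 0.037 for *Ocln*. Feed G minus feed B ran from -0.14 to 0.44 for *Cldn4* and from -0.13 to 0.35 for *Cldn15*, and feed K minus feed B from -0.053 to 0.53 for *Cldn4* and from -0.15 to 0.096 for *Ocln*.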
